A study of Mus musculus with 26 samples.

Results

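The Sult2a genes of the mouse encode cytosolic sulfotransferases of the hydroxysteroid type. All 8 genes named Sult2a1 to Sult2a8 were taken from the 47643 genes of the count table by matching Ensembl identifiers to these symbols, and each was followed in all 26 liver libraries. The family was singled out because of its counts in the Fxr-/- Shp-/- livers, so the values of that contrast are given as a description without a test. In the other 4 contrasts Sult2a7 and Sult2a8 were tested.

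These enzymes move a sulfate group from the donor PAPS to hydroxyl groups of steroids such as dehydroepiandrosterone and of bile acids. Sulfation makes bile acids more water soluble and favours their excretion, and in rodents several Sult2a transcripts are known to be more abundant in female than in male liver. Nuclear receptors, among them FXR, PXR and CAR, have been described as regulators of Sult2a promoters. FXR (gene Nr1h4) is the bile acid receptor, and SHP (gene Nr0b2) is a corepressor whose gene FXR induces.

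The libraries formed 10 groups in 5 experiments. Corn oil (n = 2) was compared with TCPOBOP, a CAR agonist (n = 2), in whole liver of 8-week-old wild-type C57BL/6J mice fed freely. The TCPOBOP titles give 36 hours and another label of the same samples gives 6 hours. Wild type (n = 3) was compared with Fxr-/- Shp-/- (n = 3) in whole liver of 12-week-old C57BL/6J mice fed freely. Sham surgery at 0 hours (n = 3) was compared with 48 hours after partial hepatectomy (n = 3) in whole liver of C3H/HeN mice of 8 to 10 weeks, fed freely. Hepatocytes of 16-week-old wild-type C57BL/6J mice on chow (n = 2) were compared with hepatocytes of mice on a 60% high fat diet (n = 2), after a fast of 10 hours in both. Chow (n = 3) was compared with a cholic acid diet (n = 3) in whole liver of C57BL/6J mice of 10 to 12 weeks after a fast of 8 to 10 hours. Both of those last groups carried floxed Fxr and floxed Shp alleles, and no Cre is named for either. Labels do not say whether each library came from its own animal, so p-values measure the spread between these samples. The share of all genes whose groups do not overlap is not given. Statements below that groups did not overlap therefore only describe the libraries.

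Reads counted to genes ranged from 13949059 to 70367874 per library, which puts 3 counts, the most that a count of 0 allows, at 0.0452 to 0.219 CPM. The unit CPM is a count divided by the library's total, per 1000000, after scaling with TMM factors over all 26 libraries. The classical CAR target Cyp2b10 had a level of 9.94 CPM in corn oil 2 but of 3706 CPM in the library labelled corn oil 1, close to the 3430 and 2988 CPM of the TCPOBOP libraries. The library labelled corn oil 1 goes against its label, and TCPOBOP results of Sult2a7 and Sult2a8 are given with and without it. In the Fxr-/- Shp-/- livers Nr0b2 was at 1.08 ± 0.517 CPM (SD, n = 3) against 17.98 ± 7.38 in wild type (n = 3), and Nr1h4 at 56.2 ± 4.42 against 136.5 ± 20.8. Which exons were deleted is not stated in the labels. Hepatocyte markers led by Alb were present in every library, and Cyp11b1 and Cdx2 of the adrenal and gut marker list were at 0 in most groups. Xist had at most 8 counts and Ddx3y at least 779 in each library.

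The 8 genes lie together on chromosome 7, in an 870.3 kb stretch of GRCm38 (chr7:13623967-14494230) that holds 26 annotated genes. Sult2a5 (chr7:13623967-13670807) and Sult2a2 (chr7:13733505-13779636) lie on the plus strand. Sult2a1 (chr7:13796246-13837409), Sult2a4 (chr7:13909676-13989607), Sult2a3 (chr7:14067446-14123044), Sult2a6 (chr7:14222403-14254870), Sult2a8 (chr7:14410686-14446769) and Sult2a7 (chr7:14465051-14494230) follow on the minus strand. A gap of 155.8 kb separates Sult2a6 from Sult2a8. All 8 are annotated as protein coding. Coding sequences of Sult2a2 to Sult2a5 were 93.7% to 97.9% identical to that of Sult2a1, Sult2a6 was 89.7% identical, Sult2a7 81.6% and Sult2a8 69.4%. The annotated coding sequence of Sult2a2 has 582 bases where that of Sult2a1 has 855.

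Upstream sequences are shown because Sult2a3, Sult2a5 and Sult2a6 moved together and Sult2a8 moved the other way in the same livers, and because Sult2a4, with nearly the same upstream letters, stayed near 0. They come from RefSeq (GRCm38.p6), whose promoter table held 5 of the 8 genes with 6 start sites: Sult2a3, Sult2a4, Sult2a5, Sult2a6 and Sult2a8, the last with 2 starts. Capitals in the first 4 mark AGTTCA, read here on the other strand as TGAACT, and GTTAAT, a core of the HNF1 motif. Capitals in the Sult2a8 stretch mark AGGTCA, the core that nuclear receptors bind.
Sult2a3 (chr7:14123084-14123242, minus strand): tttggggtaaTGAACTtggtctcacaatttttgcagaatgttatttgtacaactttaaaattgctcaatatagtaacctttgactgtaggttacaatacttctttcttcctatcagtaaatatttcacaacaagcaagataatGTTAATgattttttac
Sult2a4 (chr7:13989680-13989838, minus strand): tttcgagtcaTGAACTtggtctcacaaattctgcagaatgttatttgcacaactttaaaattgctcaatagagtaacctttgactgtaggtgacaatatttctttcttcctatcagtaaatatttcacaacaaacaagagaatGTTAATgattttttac
Sult2a5 (chr7:13623796-13623954, plus strand): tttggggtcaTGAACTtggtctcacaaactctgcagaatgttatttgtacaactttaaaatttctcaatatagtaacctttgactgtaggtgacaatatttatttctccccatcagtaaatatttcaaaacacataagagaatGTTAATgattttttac
Sult2a6 (chr7:14254926-14255085, minus strand): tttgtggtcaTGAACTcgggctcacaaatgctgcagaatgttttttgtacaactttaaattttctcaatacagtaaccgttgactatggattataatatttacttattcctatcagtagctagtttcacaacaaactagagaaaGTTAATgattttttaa
Sult2a8 (chr7:14438626-14438725, minus strand): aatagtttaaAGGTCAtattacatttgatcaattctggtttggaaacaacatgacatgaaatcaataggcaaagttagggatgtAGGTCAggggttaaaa
The 4 stretches of Sult2a3 to Sult2a6 end 13 to 92 bases before the annotated starts, and any 2 of them were 83.0% to 93.1% identical over 159 aligned bases. First bases of the TGAACT and GTTAAT matches lay 133 bases apart in Sult2a3, Sult2a4 and Sult2a5 and 134 apart in Sult2a6. The Sult2a8 stretch lies upstream of the inner of its 2 starts, at position 14438551, within the gene body of longer transcripts. It holds the 2 AGGTCA matches found there, and neither Sult2a8 start had an AGTTCA or GTTAAT match within 250 bases.

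Searched on both strands in the 250 bases before 32851 RefSeq starts, AGTTCA occurred in 11.8% of promoters, GTTAAT in 6.43% and AGGTCA in 14.02%. TGAACT together with GTTAAT in the orientation above occurred in 0.259%. Both at a spacing of 133 or 134 bases occurred in 5 promoters, those of Sult2a3, Sult2a4, Sult2a5, Sult2a6 and Olfr175. The spacing was chosen after these 4 sequences were seen. Every motif was searched only in the letters printed here, so imperfect forms were not counted. This matters for the inverted repeat given last below. The letters around the first capitals in the Sult2a3, Sult2a4, Sult2a5 and Sult2a6 stretches are close to it without matching it. Its count of 0 therefore does not show that these promoters lack such a repeat, and imperfect repeats were not tested. TTCNNNGAA, the STAT motif, occurred in 7.02% of promoters and in 0 of the 6 Sult2a windows. AGGTCATGACCT, an inverted repeat of that core with no spacer, occurred in 0 of the promoters.

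Outside the Fxr-/- Shp-/- group Sult2a8 made up 96.0% to 99.9% of the family's counts in each of the other 9 groups, the lowest share being that under cholic acid. Sult2a1 was the leading member in Fxr-/- Shp-/- liver. Its counts were 26794, 23487 and 33389 in the 3 knockout libraries and 4, 1 and 4 in the 3 wild-type libraries. No library outside the knockout group had more than 4. On the CPM scale the level was 1180 ± 170 (SD, n = 3) in the knockouts and 0.165 in the controls. The ratio of pooled counts was 7049, with a 95% interval of 3713 to 15420 that covers counting error only.

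Sult2a2, the closest relative of Sult2a1 by coding sequence, had 5475, 5281 and 6926 counts in the knockout libraries and 0 in all 3 wild-type libraries. Its level of 249.4 ± 28.8 CPM was at least 1479-fold higher than the 3 counts per library that a count of 0 allows in wild type. Sult2a3 had 1090, 985 and 1938 counts and was at 0 in all other 23 libraries. Its 56.3 ± 19.8 CPM was at least 334-fold higher than the same limit in wild type. The third knockout library was the highest of the 3 for each of Sult2a1, Sult2a2 and Sult2a3.

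Sult2a5 had 2507, 2103 and 3460 counts in the knockouts and 0, 0 and 1 in wild type. Pooled counts gave a ratio of 6119 with a counting interval of 1098 to 241700. Sult2a6 had 2299, 2108 and 2743 counts against 0, 0 and 1, a ratio of 5421 with a counting interval of 973 to 214200. With a single wild-type count behind each, these ratios are far less precise than that of Sult2a1, and the groups did not overlap for either gene. Sult2a4, which lies between Sult2a1 and Sult2a3, had only 2, 4 and 5 counts in the knockouts and 0 in all other libraries. At 0.155 ± 0.0615 CPM it stood near the level of 3 counts, so no ratio is given.

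**Figure D1:**
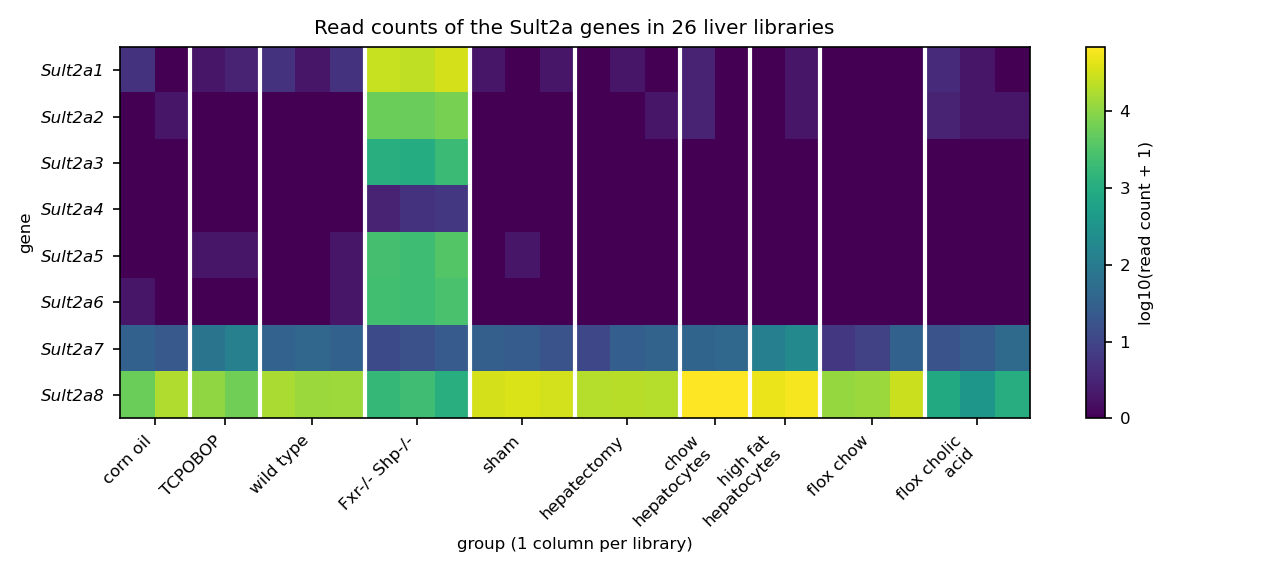
Read counts of the 8 genes (rows) in the 26 libraries (columns, by group), coloured by log10(count + 1). Sult2a1, Sult2a2, Sult2a3, Sult2a5 and Sult2a6 reach 985 counts or more in each Fxr-/- Shp-/- library and at most 4 counts in any other library, while Sult2a8 has 367 counts or more in every library.

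Sult2a8 ran the opposite way in the same livers. The wild-type libraries held 16524, 12623 and 13084 of its reads and the knockout libraries 1676, 2228 and 1128. The level was 10.9-fold lower, at 71.8 ± 25.6 CPM against 785 ± 52.9 (SD, n = 3 each), a log2 fold change of -3.44 ± 0.25 (SE). For Sult2a7 the wild-type counts were 32, 38 and 31 and the knockout counts 11, 15 and 23, a log2 fold change of -1.43 ± 0.31. The groups did not overlap for either gene. Of 13473 genes tested in this contrast 40.4% were called at an adjusted p under 0.05.

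The summed level of the 8 genes was 1772 ± 228 CPM in the knockouts against 787 ± 52.7 CPM in the controls, 2.25-fold higher. Its makeup turned over: Sult2a8 gave 99.7% of the family's counts in wild type and 4.21% ± 1.94 in the knockouts (SD, n = 3). Sult2a1 gave 66.5% ± 1.39 of the knockout counts, Sult2a2 14.1% ± 0.439, Sult2a5 6.36% ± 0.586, Sult2a6 5.71% ± 0.156 and Sult2a3 3.12% ± 0.681. Per kilobase of exon, Sult2a1 in the knockouts reached 1156 ± 167 CPM per kb, and Sult2a8 in wild type 239 ± 16.1 CPM per kb. The annotated exons of Sult2a8 span 3284 bases over several transcripts and those of Sult2a1 1020 bases.

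**Figure D2:**
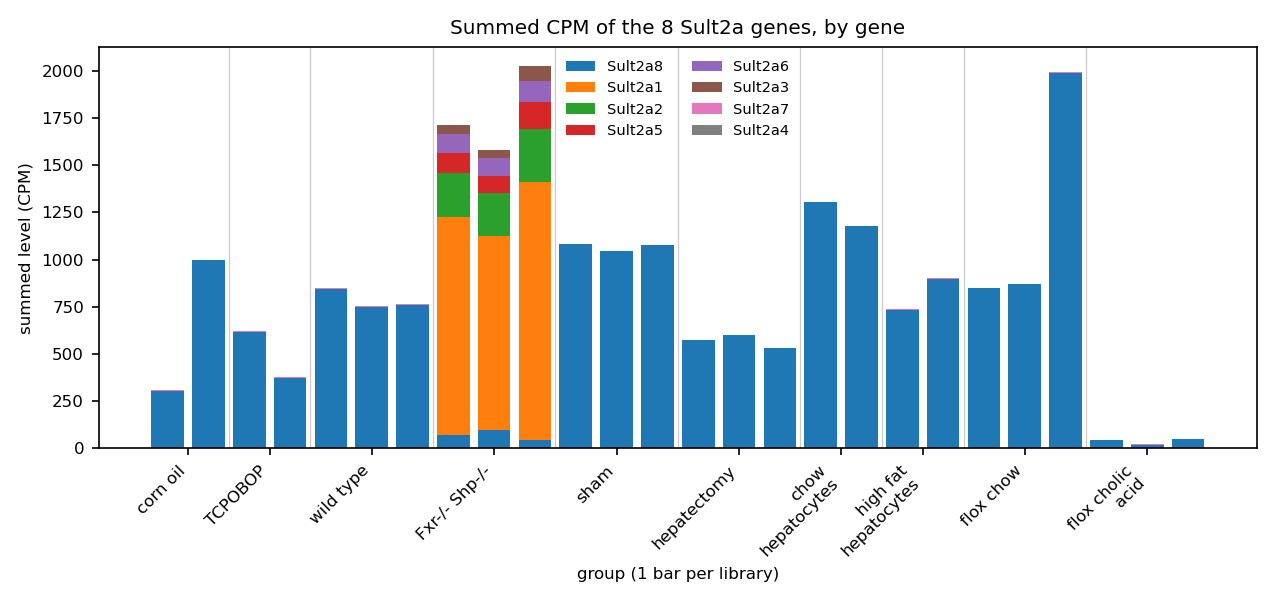
Summed CPM of the 8 genes in each library (bars, coloured by gene, grouped on the horizontal axis). Sult2a8 fills nearly the whole bar in each library outside the Fxr-/- Shp-/- group, where Sult2a1 gives 64.9% to 67.3% of the counts, and the cholic acid bars are the lowest at 21.3 to 51.8 CPM.

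Near-identical copies limit how far single members can be told apart. Of the 50-base windows of its exons, Sult2a2 had 37.9% found in no other transcript, Sult2a5 65.5%, Sult2a1 66.8% and Sult2a4 74.6%. Sult2a3, Sult2a6 and Sult2a8 had 91.6%, 93.4% and 98.0%, and Sult2a7 100%. Reads aligned to several places were counted for no gene, and made up 43.2% to 44.1% of all reads in the table in wild type and 25.5% to 26.9% in the knockouts. Their part in the member values was not tested.

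Counts from the cluster in the knockouts were not limited to the Sult2a coding genes. Between the ends of Sult2a5 and Sult2a6 lie 20 annotated genes, 14 of them pseudogenes. Of these 14, 8 had counts in the knockout libraries, 1324 in all, and 0 had any count in the other 23 libraries. Zbed4-ps1, inside Sult2a5 on the same strand, had 765 of them, Kat6b-ps2, inside Sult2a1, 147, and Sult2a-ps1 143.

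**Figure D3:**
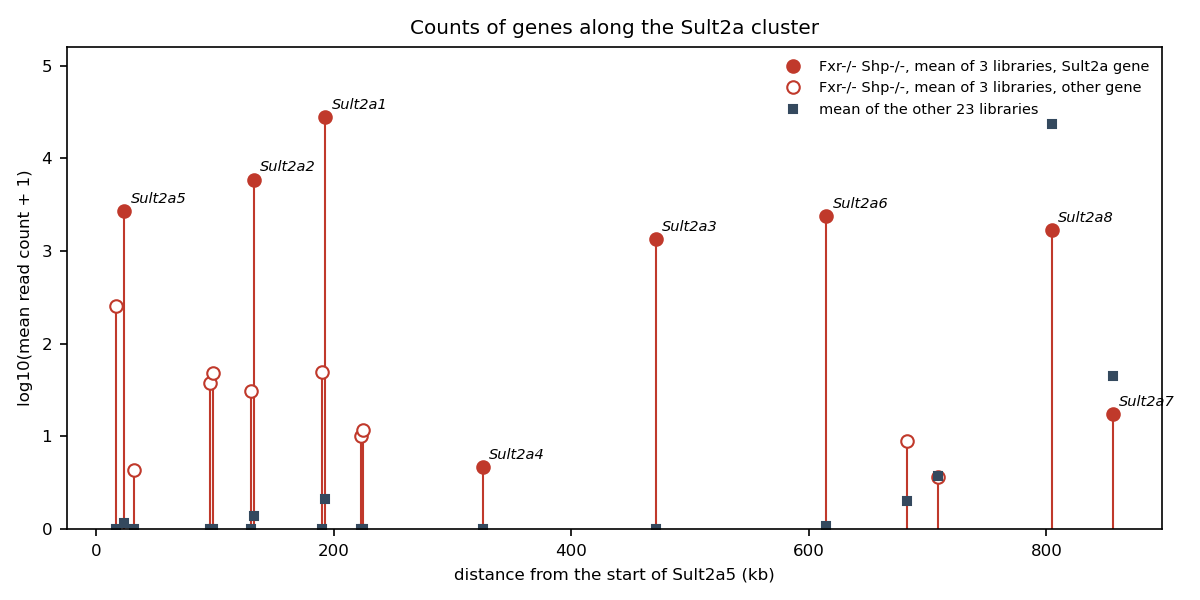
Mean read counts of genes along the cluster, as log10(mean count + 1), against distance from the start of Sult2a5 in kb; filled circles are Sult2a genes and open circles other genes in the 3 Fxr-/- Shp-/- libraries, and squares are means of the other 23 libraries. Between Sult2a5 and Sult2a6 the squares lie near 0, and at Sult2a8 the square lies above the circle.

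Cholic acid feeding gave the lowest Sult2a8 levels of the series. Counts in chow-fed floxed mice were 11641, 12832 and 27689, and in those fed cholic acid 862, 367 and 1040. The level fell from 1237 ± 652 CPM to 37.6 ± 15.7 CPM (SD, n = 3 each), 32.9-fold lower, with a log2 fold change of -5.05 ± 0.50 (SE) and an adjusted p of 0.00256 in edgeR's quasi-likelihood test. The groups did not overlap. The third chow library, at 1989 CPM, stood above the other two, at 849 and 872 CPM, and without it the change was -4.52 (adjusted p = 0.00183, edgeR). Of 12577 genes 4.77% were called, 2.5% as lower.

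The other Sult2a genes stayed near 0 in the cholic acid livers. Sult2a1 had 3, 1 and 0 counts, Sult2a2 had 4 in all 3 libraries together, and Sult2a3 to Sult2a6 had 0. Sult2a7 was at 1.43 ± 0.673 CPM against 1.05 ± 1.03 with overlapping groups, a log2 difference of 0.45 ± 0.68 (adjusted p = 0.728, edgeR). Leaving out 1 library at a time moved it from 0.04, without the third cholic acid library, to 1.63 (adjusted p = 0.105), without the third chow library; without the first or second chow library it was 0.05 or 0.14 and without the first cholic acid library 0.74. The summed level of the family was 39.2 ± 15.9 CPM under cholic acid and 1238 ± 653 CPM on chow. Whether the knockout pattern differs from that under cholic acid was not tested, since the members were chosen on the knockout.

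Nr0b2, the SHP gene, was 1.96 ± 0.27 (log2) higher under cholic acid (adjusted p = 0.00982, edgeR), and Nr1h4 1.01 lower. Nr1i2, which encodes PXR, rose by 0.68 ± 0.15 (adjusted p = 0.0443). Of the 17 receptors and factors tested from a list named for Sult2a promoters, 4 were higher and 1 lower. Their median was 0.25 beside 0.01 over all genes, of which 4.77% were called. Nr1i3 (CAR) was at 170 ± 58.6 CPM against 196 ± 29.3 and Ppara at 51.6 ± 14.3 against 64.1 ± 35.7, and neither was called.

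After partial hepatectomy Sult2a8 was lower in all 3 libraries than in any sham library. Its counts were 33492, 35587 and 31984 after sham surgery and 20059, 20580 and 19369 at 48 hours. The level fell from 1068 ± 19.3 CPM to 569 ± 36.1 CPM (SD, n = 3 each), 1.88-fold lower, a log2 change of -0.91 ± 0.08 (SE; adjusted p = 0.000147, edgeR). The groups did not overlap, and 30.7% of 13753 genes were called, 14.3% as lower. In a single fit over all 26 libraries the same change had an adjusted p of 0.0925. Sult2a7 had 28, 25 and 16 counts after sham and 10, 27 and 33 after hepatectomy, and its difference of -0.14 ± 0.43 (adjusted p = 0.83) turned to 0.04 without the first sham library and to 0.21 without the first hepatectomy library.

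Of 17 receptors and factors tested after hepatectomy 7 were lower and 1 higher, beside 30.7% called among all genes. Nr0b2 was higher (1.99 ± 0.38, adjusted p = 0.00562, edgeR), and Nr1i3 (-0.71 ± 0.15, adjusted p = 0.0087), Nr1i2 (-0.73 ± 0.12, adjusted p = 0.00363) and Nr1h4 (-0.54 ± 0.17, adjusted p = 0.0472) were lower. In the knockouts 10 of 17 were lower and 1 higher, where 40.4% of all genes were called, and the 10 include the deleted genes Nr1h4 and Nr0b2 themselves. Of the others, Nr1i3 was at -1.04 ± 0.13 (adjusted p = 0.00037) and Ppara at -0.98 ± 0.21 (adjusted p = 0.00594). On the high fat diet 2 of 17 were higher and 2 lower, a share near the 24% called among all genes. None of Nr1i3, Nr1i2, Nr1h4, Nr0b2 and Ppara was called there. After TCPOBOP none was called either, but the fit of all 4 libraries called 0 of 12785 genes. That fit therefore says nothing on these receptors, whose values without the library labelled corn oil 1 are not given.

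In hepatocytes of mice on the high fat diet Sult2a7 and Sult2a8 moved in opposite directions. Sult2a8 had 66875 and 67718 counts on chow and 48757 and 58173 on the high fat diet, and its level fell from 1240 ± 92.7 CPM to 816 ± 115 CPM (SD, n = 2 each), a log2 change of -0.63 ± 0.13 (SE; adjusted p = 0.0221, edgeR). Sult2a7 had 35 and 40 counts on chow and 122 and 185 on the high fat diet, and rose from 0.689 ± 0.0074 CPM to 2.35 ± 0.719 CPM, a log2 change of 1.74 ± 0.30 (adjusted p = 0.0153). The groups did not overlap for either gene, and 24% of 13892 genes were called, 12.9% as higher and 11.1% as lower. Each call rests on 1 library: without the first high fat library the Sult2a8 change was -0.49 (adjusted p = 0.0698, edgeR), and without the second the Sult2a7 change was 1.38 (adjusted p = 0.051). In the single fit over all libraries the Sult2a8 change of -0.60 had an adjusted p of 0.459.

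Markers of other liver cell types moved with this comparison, in which 24% of all genes were called, 12.9% as higher. Summed endothelial markers were at 38.1 to 40.1 CPM on chow and 95.4 to 98.3 CPM on the high fat diet, and 5 of 5 were called higher. Stellate cell and fibroblast markers, led by Dcn, were at 7.48 to 11.5 and 26.4 to 30.5 CPM, with 4 of 5 tested called higher, and 4 of 5 tested leukocyte and macrophage markers were higher. Krt19 and Epcam of the bile duct list were at 0 on chow. Summed hepatocyte markers were at 103700 to 106400 CPM on chow and 102700 to 104000 on the high fat diet. The part of these cells in the Sult2a values was not tested.

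TCPOBOP gave no call for any Sult2a gene with all 4 libraries, and 0 of 12785 genes (0%) were called by edgeR, although 751 had an unadjusted p under 0.05 and DESeq2 called 94. Sult2a7 had 31 and 21 counts after corn oil and 72 and 128 after TCPOBOP. Its level was 1.44 ± 0.399 CPM against 6.00 ± 2.56 (SD, n = 2 each). The groups did not overlap, which groups of 2 libraries often show without any change. The first of the corn oil counts is from the library labelled corn oil 1. The log2 difference was 2.04 ± 0.44 (SE), with an adjusted p of 0.737 by edgeR, 0.0371 by DESeq2 and 0.167 in a single edgeR fit of all libraries. Without the library labelled corn oil 1 it was 2.35 (adjusted p = 0.0239, edgeR, 1 control against 2), in a fit that called 1233 genes. Without corn oil 2 it was 1.79 (adjusted p = 0.0951), and 413 genes were called.

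Sult2a8 had 5476 counts in the library labelled corn oil 1, 18053 in corn oil 2, and 10582 and 6074 after TCPOBOP. The library labelled corn oil 1 had the lowest level of the 4, 305 CPM, and corn oil 2 the highest, 997 CPM. With all 4 libraries the difference was -0.42 ± 0.61 (adjusted p = 0.972, edgeR). Without the library labelled corn oil 1 it was -1.04 (adjusted p = 0.0374, among the same 1233 called genes), and without corn oil 2 it was 0.69 (adjusted p = 0.25). In the fits with 1 corn oil library, that library is assumed to vary like the others.

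**Figure D4:**
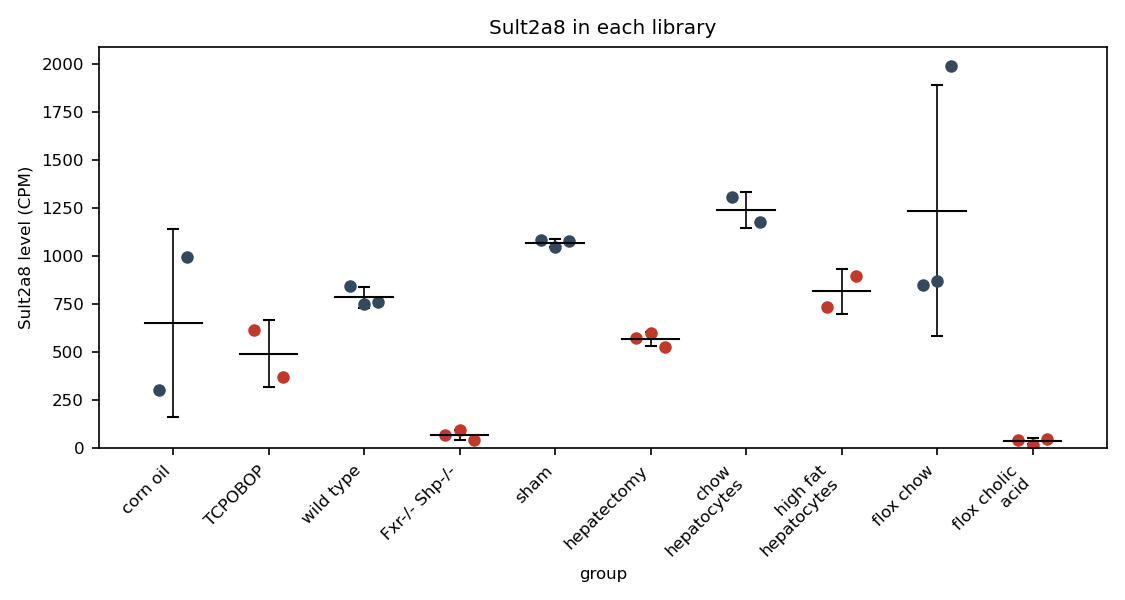
Sult2a8 level in CPM (vertical axis) in each library by group, dark points for control and red for treated groups, with the mean (line) and SD (bars). Cholic acid and Fxr-/- Shp-/- libraries lie at 19.8 to 97.3 CPM, below all others, and one chow-fed floxed library is the highest at 1989 CPM.

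Across the 10 groups Sult2a8 was highest in chow hepatocytes (1240 CPM), chow-fed floxed mice (1237) and sham livers (1068). The wide range of the floxed mice, 849 to 1989 CPM, overlapped that of each of the other two, which did not overlap each other. High fat hepatocytes, wild type, corn oil, hepatectomy and TCPOBOP followed from 816 down to 493 CPM, each overlapping the next in order. The place of corn oil and its overlaps rest on the library labelled corn oil 1, at 305 CPM. Corn oil 2, at 997 CPM, stood above every high fat library (up to 897.5 CPM) and every wild-type library (up to 845.7 CPM). Knockout and cholic acid livers stood apart below them at 71.8 and 37.6 CPM, and overlapped each other. Sult2a7 was highest after TCPOBOP (6.00 CPM), apart from the next group, and from the high fat hepatocytes (2.35) down to hepatectomy (0.659) each group overlapped the next. These groups differ in strain, age, feeding and tissue.

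The size of the Sult2a8 change differed between experiments. In 1 fit over all libraries, a comparison added after the values were seen, the cholic acid change minus the hepatectomy change was -4.13 ± 0.56 (log2, SE; adjusted p = 4.59e-05, edgeR; 18.4% of 14921 genes called). The cholic acid change minus the high fat change was -4.44 ± 0.63 (adjusted p = 0.00017; 16.3% called). Hepatectomy and high fat diet differed by -0.31 ± 0.60 (adjusted p = 0.779; 17.9% called), which does not show that they act alike. For Sult2a7 hepatectomy minus high fat diet was -1.90 ± 0.75 (adjusted p = 0.0854), and -1.90 ± 0.59 (adjusted p = 0.0348) when only the libraries of those 2 experiments were fitted.

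**Figure D5:**
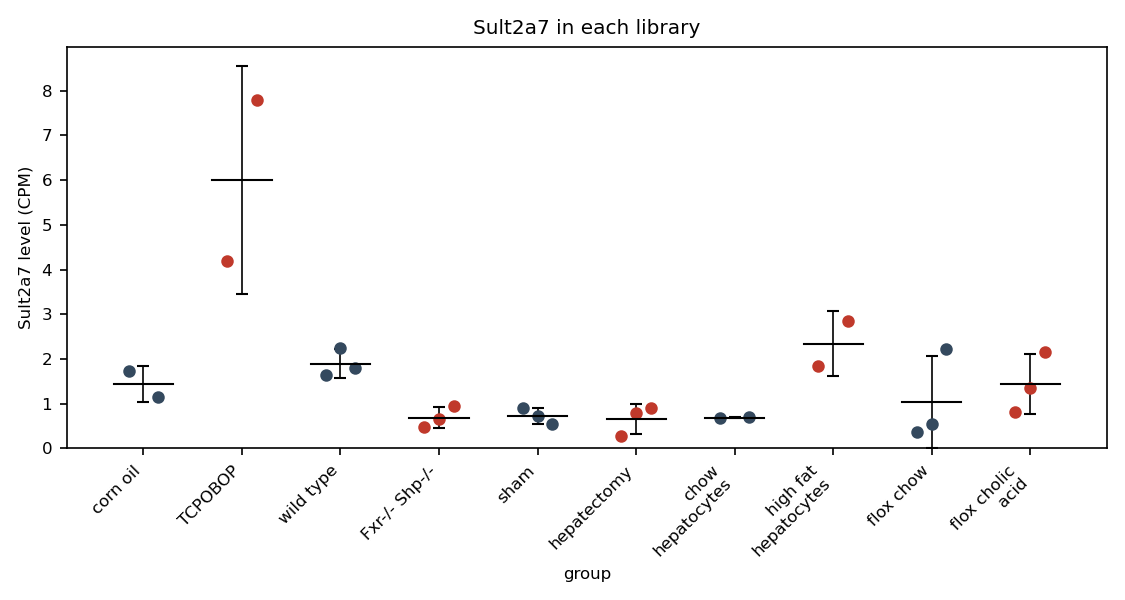
Sult2a7 level in CPM (vertical axis) in each library by group, dark points for control and red for treated groups, with the mean (line) and SD (bars). TCPOBOP libraries are the highest at 4.19 and 7.80 CPM and every other library lies at or below 2.85 CPM.

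Of 8 other cytosolic sulfotransferases tested in the knockouts 6 were higher and 2 lower, in a contrast where 40.4% of all genes were called. Sult3a1 was at 9.50 ± 3.06 CPM and Sult3a2 at 1.58 ± 0.179 CPM where wild type was at 0 in all 3 libraries. Both were tested only because of their knockout counts, so they could only come out higher and no p is given for them. The 6 higher genes include both, so that count is a description. Sult5a1 fell by 7.41 on the log2 scale, from 10.8 ± 2.91 CPM, and Sult1d1, which sulfates catecholamines and eicosanoids, by 0.76. Sult5a1 was also lower after cholic acid (-3.15 ± 0.25, adjusted p = 0.0019) and hepatectomy (-1.02 ± 0.16, adjusted p = 0.0026), where Sult2a8 fell as well, but on the high fat diet, where Sult2a8 also fell, it was at 0.48 ± 0.51 (adjusted p = 0.53). On the high fat diet 4 of 6 tested were higher and 0 lower, where 12.9% of all genes were called higher. The rise was led by the estrogen sulfotransferase Sult1e1 (3.61 ± 0.59, adjusted p = 0.0134) and Sult1c2 (1.88 ± 0.19, adjusted p = 0.00445).

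Sulfation also needs the donor PAPS. Of 9 tested genes listed for its supply, 1 was higher and 2 were lower in the knockouts, where 40.4% of all genes were called. After hepatectomy 1 was higher and 3 were lower (30.7% of all genes called). On the high fat diet 2 were higher and 1 was lower (24% called). Papss1, a PAPS synthase, was higher in the knockouts (1.70 ± 0.19, adjusted p = 0.000224, edgeR), after hepatectomy (0.74 ± 0.12, adjusted p = 0.00319) and on the high fat diet (0.90 ± 0.17, adjusted p = 0.02). Papss2, the other PAPS synthase, fell after hepatectomy from 326.5 ± 14.6 to 180 ± 11.5 CPM (-0.86 ± 0.08, adjusted p = 0.000233). Under cholic acid 1 of 9 tested genes of this list was called, the sulfate transporter Slc26a1 (-0.97 ± 0.15, adjusted p = 0.0134). In the knockouts Abcc4, which exports sulfated bile acids, was 4.79 ± 0.34 higher (adjusted p = 2.18e-05) and the uptake carrier Slco1a1 fell by 10.54 on the log2 scale (adjusted p = 4.79e-07). Under cholic acid 5 of 9 tested bile acid and conjugate carriers, exporters and uptake carriers together, were higher and 1 was lower. The higher ones were the exporters Abcb11, Abcc2, Abcc4 and Slc51b and the uptake carrier Slco1a4. The largest rise was that of Slc51b, a subunit of the basolateral bile acid exporter (5.01 ± 0.90, adjusted p = 0.0202). Slc51b had too few counts to be tested for TCPOBOP or in the knockouts. If only the cholic acid libraries brought it into this fit, it could only come out higher. Of all genes 4.77% were called under cholic acid and 14.3% were called lower after hepatectomy. After hepatectomy 5 of 9 were lower and 1 was higher. The lower ones were the exporter Abcc3 and the uptake carriers Slco1a1, Slco1a4, Slco1b2 and Slc10a1, the last by the most (-1.20 ± 0.10, adjusted p = 8.86e-05).

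In the knockouts 20 of 21 tested genes known to be more abundant in female liver were higher and 0 lower. Their median log2 change was 4.75 beside -0.01 over all genes, of which 40.4% were called. Cyp2b9 was at 306 ± 19.5 CPM against 0.0787 in wild type, and Cyp2b13 at 103 ± 30.9 against 0.0387. Of 22 male-biased genes 21 were lower, Mup7 falling from 5399 ± 804 to 1.40 ± 2.13 CPM. Some of the higher genes, such as Sult3a1, were at 0 in wild type and entered the test only through their knockout counts. Such genes could only come out higher, and the count and median include them, so both are descriptions. These lists were drawn up with results of these data known and share Sult3a1 and Sult1e1 with the sulfotransferase list.

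On the high fat diet 10 of 15 female-biased genes were higher, 2 lower, and 19 of 22 male-biased genes were lower. Among all genes 12.9% were called higher and 11.1% lower in that contrast. A gene with too few counts on chow could enter the fit only through the high fat libraries and only come out higher. The count of higher genes is therefore a description. The steroid hydroxylase Cyp2b9 reached 195 ± 42.7 CPM there, from 0.592 on chow (adjusted p = 0.00123, edgeR), while Sult2a1 had 0 and 1 counts in libraries of 70367874 and 70026691 counted reads, where 3 counts equal 0.0452 to 0.0463 CPM. Under cholic acid 14 of 21 male-biased genes were lower, among them Selenbp2 (-6.07 ± 0.58, adjusted p = 0.00256) and the 3-ketosteroid reductase Hsd3b5 (-5.98 ± 0.58, adjusted p = 0.00256). Of 11 female-biased genes 2 were higher, Prom1 and Cux2, a female-biased repressor (5.68 ± 1.02, adjusted p = 0.02). Cux2 had too few counts to be tested for TCPOBOP. If only the cholic acid libraries brought it into this fit, it could only come out higher. Under cholic acid 4.77% of all genes were called, 2.5% as lower. Hepatectomy had 5 of 15 female-biased genes lower and 0 higher. Of 21 male-biased genes 9 were lower and 3 higher there, and 14.3% of all genes were called lower. In the same hepatectomy livers Sult2a1 to Sult2a6 had at most 1 count in any library.

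Stellate cell and fibroblast markers were at 342 to 391 CPM in the knockouts and 147 to 242 CPM in wild type, and 5 of 6 were called higher. Bile duct markers, led by Spp1, were at 54.4 to 126.7 against 26.2 to 35.7 CPM, with 4 of 5 higher, and 5 of 8 hepatocyte markers were lower. In this contrast 40.4% of all genes were called. In whole liver, fewer cells of a type and less RNA per cell cannot be told apart. Adrenal and gut markers, tissues where sulfotransferases of this family are also known, summed to 15.3 to 23.4 CPM in the knockouts. In wild type they summed to 48.8 to 67.6 CPM, and Cyp11a1, Cyp11b1 and Cdx2 were at 0 in both groups. Fabp2 was the most abundant of the list in every group. The sum was highest in high fat hepatocytes, at 155 to 160 CPM, so it is not specific to adrenal or gut tissue.

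Among 12179 genes with a mean of at least 1 CPM, those whose log2 levels were most like Sult2a8 over the 26 libraries were Ces3a (Pearson r = 0.952, Spearman rho = 0.863), Nat8f2 (0.887, 0.654), Ttc39c (0.885, 0.820), Apon (0.884, 0.620) and Vtn (0.881, 0.556). The carboxylesterase gene Ces3a was at 307 ± 138 CPM under cholic acid and 2214 ± 116 CPM in its chow group, and at 533 ± 206 CPM in the knockouts against 1327 ± 109 in wild type. Genes most like Sult2a1 were Ctse, Gprc5b, Rasl10b, Rims4 and Sdcbp2 (r = 0.951 to 0.975). Their likeness rests on the 3 knockout libraries standing apart from the other 23, and rho was 0.224 to 0.590. The libraries of an experiment share strain, feeding and depth.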

How the data were processed

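Messenger RNA was sequenced in 26 mouse liver or hepatocyte libraries, prepared with a stranded TruSeq kit per the labels' protocols. The authors deposited 1 table of raw read counts per gene. The submitters' processing notes name bcl2fastq 2.17.1.14, Trimmomatic, STAR 2.4.2a, Picard 1.119, HTSeq and GRCm38/mm10; the annotation and strand setting of counting are not given in the sources used here. The 5 summary lines were left out of library sizes; reads without a unique alignment were 16.6% to 44.1% of all, reads in no gene 3.20% to 5.37% and ambiguous reads 1.02% to 3.73%. Of 47643 identifiers 47224 had a symbol. Positions and transcripts are those of GENCODE M21. Coding sequences stand in for proteins in the comparison of members.

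Groups followed the sample titles. Each experiment was fitted alone with edgeR 4.0.16 (R 4.3.3): filterByExpr (count 10, total 15), TMM, quasi-likelihood test, Benjamini-Hochberg adjustment over all genes, calls at 0.05. DESeq2 1.42.0 and the other alternatives are covered in the closing section. The procedure was run on simulated counts for hepatectomy, high fat diet and cholic acid, with an outcome not given here. The simulated spread between replicates was smaller than the 26.4% estimated for the cholic acid experiment. TCPOBOP, with an estimate of 24.7%, and the knockout were not simulated. Low counts kept Sult2a1 to Sult2a6 out of every fit other than the knockout's, and Sult2a4 out of that one too. Counting intervals are 95% exact binomial. Levels were scaled over all libraries, and likeness used log2(CPM + 0.5).

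Members and lists were chosen with earlier results of these data known. The rule for named genes was all 8 members, the 2 called genes with the largest rise and fall in each list, 5 receptors whatever their change, the most abundant marker of each list and the 5 genes most like Sult2a1 and Sult2a8; Cyp2b10 and the pseudogenes were added after their values were seen. Replicates differed by more than sampling noise in every group. The titles number the replicates but name no pairs. Same-numbered cholic acid and chow libraries deviated together weakly (r = 0.133, 0.155 and 0.103), which does not establish pairs. Same-numbered r was 0.104 for TCPOBOP and 0.094 for the high fat diet, where 2 libraries per group give a single value up to its sign. The main fits used no pairs, and fits with the replicate number as a block are in the closing section.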

Additional observations from a re-analysis of the deposited data

How the results depend on the processing

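With the replicate block the calls of Sult2a7 and Sult2a8 did not change (Sult2a8 under cholic acid -5.04, adjusted p = 0.00321 by edgeR), and 0, 4763, 3664, 3693 and 480 genes were called for TCPOBOP, knockout, hepatectomy, high fat diet and cholic acid. DESeq2 called 94 genes and 1 Sult2a gene for TCPOBOP and 1367 genes for cholic acid. A single fit of all 26 libraries called 9 genes for TCPOBOP, 1735 genes and 1 Sult2a gene for the high fat diet, 3132 for cholic acid and 0 Sult2a genes after hepatectomy. Without the filter on low counts 955 genes were called for cholic acid. Leaving out 1 library at a time gave 0 to 1233 called genes for TCPOBOP, 3969 to 6024 for the knockout, 2554 to 4217 for hepatectomy, 1141 to 2644 for the high fat diet and 189 to 1345 for cholic acid, the last without the third chow library. Called Sult2a genes ranged from 0 to 2 for TCPOBOP and from 1 to 2 for the high fat diet. The log2 ratio of summed levels ranged from -1.0 to 0.70 for TCPOBOP, and with Sult2a8 left out of the sum it was 1.93 for TCPOBOP, 9.66 for the knockout, -0.16 for hepatectomy, 1.70 for the high fat diet and 0.59 for cholic acid. With CPM by library total it was 1.38 for the knockout and -0.73 for hepatectomy. The Sult2a8 change for TCPOBOP ranged from -1.04 without the library labelled corn oil 1 to 0.69 without corn oil 2, and that of Sult2a7 after hepatectomy from -0.44 to 0.21, being 0.04 without the first sham and 0.21 without the first hepatectomy library. In 100-base windows the share of unique sequence was 88.6% for Sult2a1, 65.4% for Sult2a2, 94.2% for Sult2a4, 83.4% for Sult2a5 and 100% for Sult2a3, Sult2a6 and Sult2a8. By Spearman rho the likeness to Sult2a1 was 0.224 for Ctse, 0.349 for Gprc5b, 0.590 for Rasl10b, 0.228 for Rims4 and 0.256 for Sdcbp2, and to Sult2a8 it was 0.863 for Ces3a, 0.654 for Nat8f2, 0.620 for Apon and 0.556 for Vtn. The cause was not tested where a value moved. Depth limits Sult2a7, with 5 to 185 counts per library, and Sult2a1 to Sult2a6 outside the knockouts.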
